A study of Mus musculus with 12 samples.

Results

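The PGC1 coactivators and the estrogen-related receptors form a small regulatory group of 7 genes, followed here through brown adipose tissue (BAT) of mice. The members were chosen by symbol: the coactivators Ppargc1a and Ppargc1b, the estrogen-related receptors Esrra, Esrrb and Esrrg, the fatty-acid-sensing receptor Ppara and the corepressor Nrip1. All 7 were present among the 24197 genes of the count table, and all 7 were among the 15265 genes with enough reads to be tested. The 12 libraries fell into 4 groups of 3, from mice aged 8 to 10 weeks that carried floxed Ebf2 alleles on both chromosomes. Controls lacked Cre (Adipoq-Cre-; Ebf2 fl/fl), and mutants carried it (Adipoq-Cre+; Ebf2 fl/fl). Each genotype was kept at room temperature or at 4 degrees C for 1 week. The Adipoq promoter drives Cre in adipocytes, so the other cells of the tissue keep their Ebf2 alleles in both genotypes. The labels do not say whether the 3 libraries of a group came from separate animals, so the p-values reflect the spread between libraries, part or all of which may be technical.

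PGC1-alpha and PGC1-beta, the products of Ppargc1a and Ppargc1b, bind no DNA themselves. They dock on nuclear receptors and other transcription factors and switch on genes of mitochondrial biogenesis, fatty acid oxidation and respiration. The estrogen-related receptors (ERR-alpha, ERR-beta and ERR-gamma, from Esrra, Esrrb and Esrrg) are orphan receptors that need no estrogen, depend on PGC1 coactivators and occupy promoters of the citrate cycle and the respiratory chain. PPAR-alpha, from Ppara, senses fatty acids and drives their oxidation, and RIP140, from Nrip1, docks on the same receptors and represses oxidative genes in fat. In brown fat, cold acts through adrenergic signalling and cyclic AMP on Ppargc1a, and the ERR genes maintain the dense mitochondria on which heat production by Ucp1 depends.

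Promoter windows of 250 bases before the annotated start were taken from RefSeq for 6 of the 7 members, 11 windows in all. Their build, GRCm38.p6, differs from the build of the counts. No window of Ppargc1b was used, so the matches below do not cover this member. The windows of 3 members are shown because these genes represent the behaviours described below: Ppargc1a, which did not rise in the cold, and Esrra and Esrrb, which rose in the mutant-labelled libraries. Capitals mark the core of a cyclic AMP response element (TGACG, or CGTCA on the other strand), through which CREB-family factors bind, or the core of an NRF1 site (TGCGCA). Each window is written 5′ to 3′ along its gene, from chr5:51567726-51567975 (minus strand) for Ppargc1a, chr19:6921809-6922058 (minus strand) for Esrra and chr12:86360867-86361116 (plus strand) for Esrrb.
Ppargc1a: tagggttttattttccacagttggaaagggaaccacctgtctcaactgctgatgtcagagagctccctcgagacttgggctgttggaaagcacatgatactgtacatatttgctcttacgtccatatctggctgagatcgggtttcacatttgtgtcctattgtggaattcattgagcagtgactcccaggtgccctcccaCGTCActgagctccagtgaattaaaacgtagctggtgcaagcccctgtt
Esrra: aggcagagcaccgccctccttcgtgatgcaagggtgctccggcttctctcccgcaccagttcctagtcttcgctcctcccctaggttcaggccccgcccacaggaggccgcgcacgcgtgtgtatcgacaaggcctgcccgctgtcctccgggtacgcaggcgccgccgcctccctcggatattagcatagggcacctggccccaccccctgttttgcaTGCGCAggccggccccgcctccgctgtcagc
Esrrb: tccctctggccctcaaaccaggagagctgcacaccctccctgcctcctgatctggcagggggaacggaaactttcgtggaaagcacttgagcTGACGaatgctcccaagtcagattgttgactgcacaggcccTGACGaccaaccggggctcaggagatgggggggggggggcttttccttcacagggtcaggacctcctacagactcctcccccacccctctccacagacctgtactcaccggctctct
The TGACG core of Ppargc1a, read on the other strand, begins 49 bases before the start, and those of this Esrrb window begin 158 and 117 bases before it. The NRF1 core of Esrra begins 31 bases before the start. The 1 window of Ppara also held TGACG, 222 bases before the start. Every window shown held a match. No window of Esrrg, which also rose in the mutant-labelled libraries, or of Nrip1 held either core. The other Esrrb window held neither core. Searched on both strands over 32851 mouse windows of the same length, TGACG was present in 17.8% and TGCGCA in 6.43%. The ERR core AAGGTCA, present in 4.08% of windows, and its extended form TCAAGGTCA, which contains it, present in 0.387%, had no match in the 11 windows, and nor did the GABPA site CCGGAAG, present in 6.91%. A match is a description of the letters and not evidence of binding.

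Library totals ran from 25835650 to 37927038 counts, so that 3 counts, used as the floor of detection, corresponded to 0.0763 to 0.114 CPM (the usual depth-scaled read count, here with TMM-corrected library sizes). Floors cover counting error only. At room temperature the level of the floxed gene, Ebf2, did not separate the labels: it was 65.2, 45.7 and 38.3 CPM with Cre and 47.4, 64.1 and 32 CPM without. After cold the values were 28.7, 21.6 and 27.0 CPM with Cre and 52.3, 42.2 and 41.6 CPM without, and did not overlap, although the difference of -0.82 ± 0.25 (log2, SE) had an adjusted p of 0.153. The room temperature counts therefore do not bear out the genotype label, and a count over the whole gene can include reads outside the deleted part. All 12 brown adipocyte markers had reads in every library. Summed skeletal muscle markers (18 genes) ranged from 95.1 to 27408 CPM, and the 4 libraries with most of them were control room temperature 1 and 3 (27408 and 19426 CPM), mutant room temperature 3 (22246 CPM) and control cold 3 (10750 CPM). The third cold mutant-labelled library stood apart in other markers: its epithelial markers summed to 239 CPM against at most 24.1 CPM elsewhere, and its brown adipocyte markers to 18133 CPM against 33151 and 34498 CPM in the other libraries of its group. Lens genes (7 markers) summed to 0.721 to 1.32 CPM at room temperature in the mutant-labelled libraries and to at least 81.0 CPM in all other libraries. In whole tissue, fewer cells of a type and less RNA per cell cannot be told apart.

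Cold raised 4 of the 7 members in the mutant-labelled libraries: Esrra, Esrrg, Esrrb and Ppargc1b. None fell, and 17.4% of all tested genes were called in that comparison. Esrra and Esrrg were the members that differed between genotypes at room temperature, where both were lower in the mutant-labelled libraries. Over all tested genes 6.24% were called there. In the cold no member was called between genotypes, and 1.12% of all tested genes were. Between the same mutant-labelled groups, summed endothelial markers (8 genes, none at 0) were 705 to 919 CPM at room temperature and 1102 to 1157 CPM in the cold. Macrophage markers (8 genes, none at 0) were 154 to 236 CPM and 123 to 153 CPM. Neither overlapped, and their part in the rise of the 4 members was not tested. In controls the endothelial sums were 687 to 1115 CPM at room temperature and 1025 to 1198 CPM in the cold, and overlapped. A log2 fold change (a difference of 1 is a doubling) is given below with its standard error (SE), and a gene is said to rise or fall only where edgeR's quasi-likelihood test gave a Benjamini-Hochberg adjusted p below 0.05 over all 15265 genes. The plot of CPM by library gives every value for the 7 members.

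**Figure D1:**
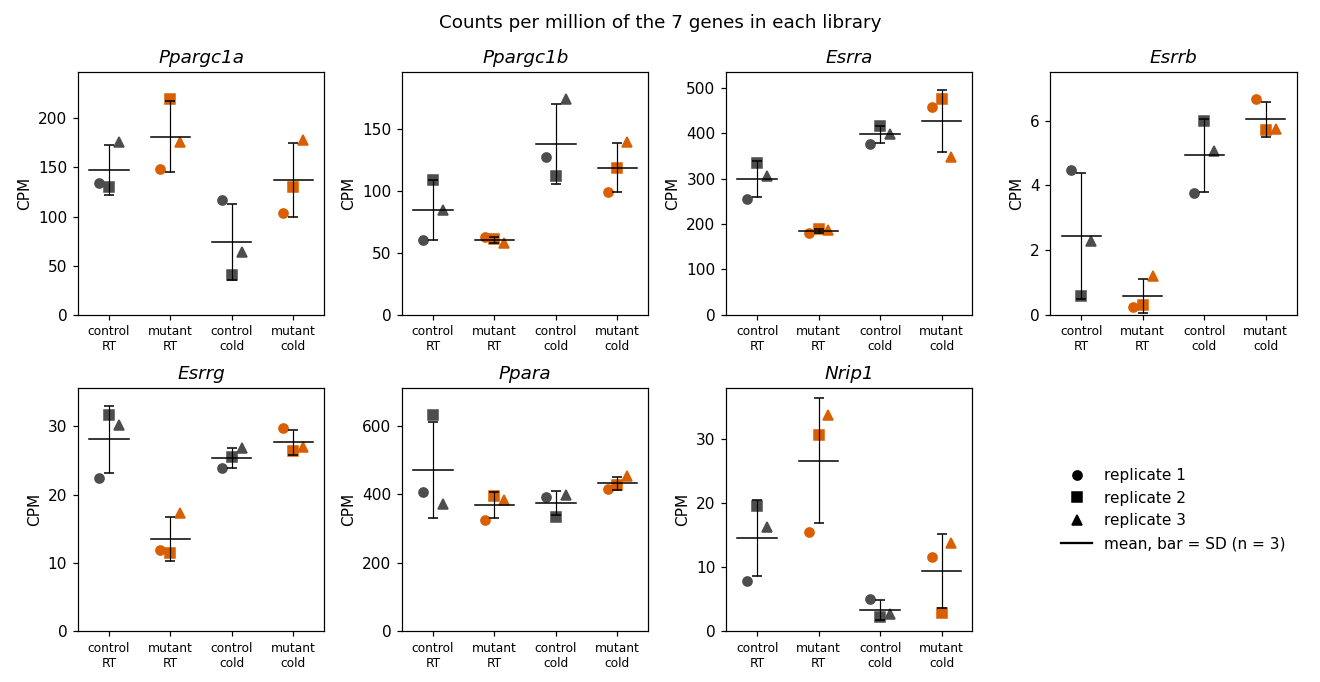
Level of each of the 7 members in every library, in CPM on a linear axis starting at 0, with 1 panel per gene. Each point is a library, grouped by genotype label and temperature (RT, room temperature), and the bars are the group mean and SD (n = 3). The Esrra, Esrrb, Esrrg, Ppargc1b and Ppara points of the mutant-labelled libraries are all higher in the cold than at room temperature. The Nrip1 points of those groups are all lower in the cold, and the Ppargc1a points overlap. Neither Ppara nor Nrip1 was called.

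Esrra, the gene of ERR-alpha, was the main receptor of its family in this tissue. Its level was 256, 335 and 306 CPM in controls at room temperature and 180, 189 and 187 CPM in the mutant-labelled libraries. After cold exposure it was 377, 416 and 399 CPM in controls and 457, 476 and 349 CPM in the mutant-labelled libraries. The room temperature mutant-labelled libraries lay below every other library and within a narrow span, and in the cold the genotypes overlapped, with the lowest and the highest of those 6 values both in the mutant-labelled libraries. The lowest, 349 CPM, came from the library rich in epithelial markers.

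At room temperature Esrra was lower in the mutant-labelled libraries by a log2 difference of -0.69 ± 0.15 (edgeR adjusted p = 0.0187). This call was lost when control library 2 or 3 or any of the 3 mutant-labelled libraries was left out (adjusted p 0.0601 to 0.0851), with differences of -0.60 to -0.70, and without the 4 muscle-rich libraries (-0.86, adjusted p = 0.173). Cold raised Esrra in the mutant-labelled libraries by 1.21 ± 0.15 (adjusted p = 0.000437), and by the same 1.21 without the muscle-rich libraries (adjusted p = 0.0124). In controls the cold libraries also lay above all room temperature libraries, but the difference of 0.41 ± 0.15 was not called (adjusted p = 0.123). Of the alternatives, limma-voom alone called it (adjusted p = 0.00891). The test of the difference between these 2 cold effects, the genotype by temperature interaction, gave 0.80 ± 0.21 and was not called either (adjusted p = 0.145).

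Esrrg, the gene of ERR-gamma, a receptor of highly oxidative tissues, had the smallest adjusted p of the members at room temperature. Its level there was 22.5, 31.7 and 30.2 CPM in controls and 11.9, 11.5 and 17.3 CPM in the mutant-labelled libraries. Cold libraries had 23.9, 25.5 and 26.8 CPM in controls and 29.8, 26.4 and 27.0 CPM in the mutant-labelled libraries. Only the room temperature mutant-labelled libraries were low, all below the other 9 libraries. The room temperature difference was -1.06 ± 0.18 (adjusted p = 0.0049) and remained called in 16 of 16 alternative analyses, at -1.43 (adjusted p = 0.0157) without the muscle-rich libraries. Cold raised Esrrg by 1.03 ± 0.18 in the mutant-labelled libraries (adjusted p = 0.00219). In controls the log2 difference was -0.15 ± 0.17 (adjusted p = 0.644). The interaction was 1.18 ± 0.25, with an adjusted p of 0.0723. It passed the threshold in DESeq2 (adjusted p = 0.00163), in limma-voom (0.00683) and without TMM factors (0.0344). It also passed without control room temperature 1 (0.0244) or mutant room temperature 3 (0.0318). Without control room temperature 3 or control cold 3 it did not pass, and all 4 of these libraries are muscle-rich.

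Esrrb, the gene of ERR-beta, was scarce and varied most. Its level at room temperature was 4.47, 0.581 and 2.28 CPM in controls (163, 16 and 75 counts) and 0.254, 0.288 and 1.19 CPM in the mutant-labelled libraries (10, 8 and 38 counts). Cold control libraries had 3.75, 5.99 and 5.07 CPM and cold mutant-labelled libraries 6.68, 5.72 and 5.74 CPM. All values were above the floor, the room temperature groups overlapped, and every cold mutant-labelled library exceeded every room temperature library. Cold raised Esrrb in the mutant-labelled libraries by 3.38 ± 0.71 (adjusted p = 0.0075), the largest difference among the members. In controls the difference of 1.01 ± 0.64 was not called (adjusted p = 0.369), except by limma-voom (adjusted p = 0.0405).

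At room temperature Esrrb was highest, within each genotype, in the libraries rich in muscle markers. The 3 muscle-rich libraries had 4.47, 2.28 and 1.19 CPM of Esrrb, and the other libraries, with 104, 1361 and 95.1 CPM of muscle markers, had 0.581, 0.254 and 0.288 CPM. In the cold this was not so: libraries with only 239, 253 and 470 CPM of muscle markers had 6.68, 5.99 and 5.72 CPM of Esrrb. Without the 4 muscle-rich libraries the cold difference was 4.46 in the mutant-labelled libraries (adjusted p = 0.00137) and 3.06 in controls, where 1 room temperature library remained (adjusted p = 0.0852). The room temperature genotype difference went from -2.09 ± 0.68 (adjusted p = 0.103) to -1.09 (adjusted p = 0.340) without them. It was called by DESeq2 (-2.08, adjusted p = 0.0142) and limma-voom (-2.42, adjusted p = 0.0351). It was also called without control room temperature 2 (-2.54, adjusted p = 0.0289) or mutant room temperature 3 (-3.16, adjusted p = 0.0355).

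**Figure D2:**
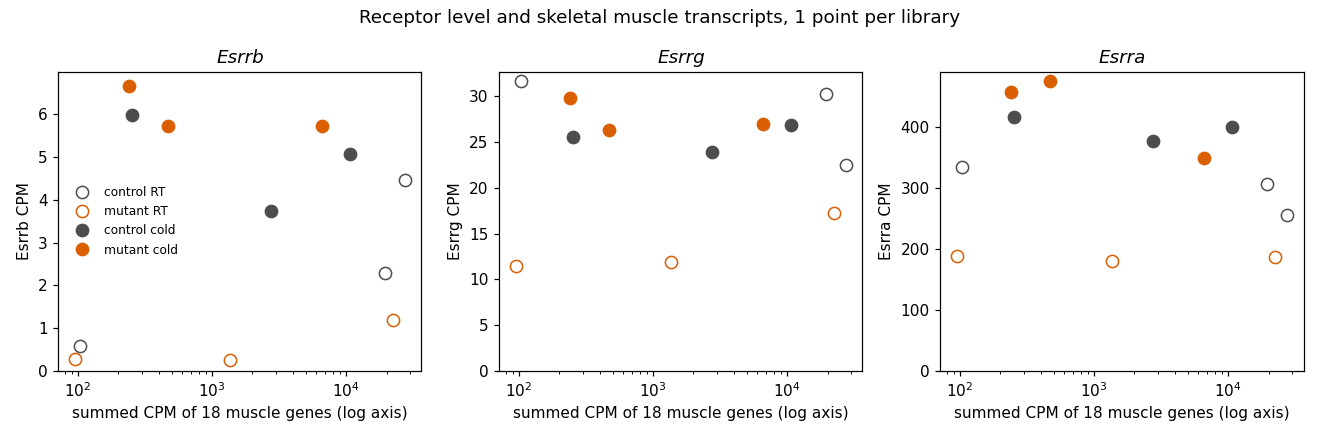
Level of Esrrb, Esrrg and Esrra in each library against the summed CPM of 18 skeletal muscle markers, with a log horizontal axis and a linear vertical axis, where symbols give genotype label and temperature (RT, room temperature). At room temperature Esrrb is highest in the 3 muscle-rich libraries, at 4.47, 2.28 and 1.19 CPM, while the cold libraries with the fewest muscle reads have 5.72 to 6.68 CPM.

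The 2 coactivators had different profiles. Ppargc1b, the gene of PGC1-beta, was 60.1, 109 and 84.8 CPM in controls and 62.5, 61.5 and 58.0 CPM in the mutant-labelled libraries at room temperature. After cold exposure the values were 128, 112 and 175 CPM in controls and 99.3, 118 and 139 CPM in the mutant-labelled libraries. Cold libraries lay above room temperature libraries in both genotypes, and the genotypes overlapped at both temperatures. The cold difference was 0.97 ± 0.22 in the mutant-labelled libraries (adjusted p = 0.0102) and 0.71 ± 0.22 in controls (adjusted p = 0.0743). The control difference was called by DESeq2 (0.69, adjusted p = 0.0295), by limma-voom (0.74, adjusted p = 0.0137) and without control room temperature 2 (0.93, adjusted p = 0.0400), and was 0.14 without the muscle-rich libraries. At room temperature the genotype difference was -0.48 ± 0.22 (adjusted p = 0.243).

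Ppargc1a, the gene of PGC1-alpha and the classical cold-inducible member, was not higher after 1 week in the cold. Its level at room temperature was 134, 130 and 176 CPM in controls and 148, 220 and 175 CPM in the mutant-labelled libraries. After 1 week of cold it was 117, 40.9 and 63.8 CPM in controls and 104, 130 and 178 CPM in the mutant-labelled libraries. The cold control libraries were all below the room temperature controls, whereas the mutant-labelled libraries overlapped between temperatures. The cold difference was -0.99 ± 0.33 in controls (adjusted p = 0.0982), and this was called by DESeq2 (-1.01, adjusted p = 0.0206), by limma-voom (-1.41, adjusted p = 0.00787) and without control cold 1 (-1.49, adjusted p = 0.0203). In the mutant-labelled libraries it was -0.40 ± 0.33 (adjusted p = 0.459). The genotype difference in the cold was 0.90 ± 0.33 (adjusted p = 0.227), with 1 control library above the lowest mutant-labelled library.

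Because both coactivators were read in the same library, their ratio does not depend on the scaling of libraries. The Ppargc1a to Ppargc1b count ratio was 2.23, 1.20 and 2.08 in controls and 2.37, 3.57 and 3.02 in the mutant-labelled libraries at room temperature. In the cold it was 0.914, 0.364 and 0.366 in controls and 1.05, 1.10 and 1.28 in the mutant-labelled libraries. The ratio was lower in the cold in every library of both genotypes, and at each temperature the mutant-labelled libraries lay above the controls without overlap. The Ppargc1a to Nrip1 count ratio was 17.0, 6.68 and 10.9 in controls and 9.56, 7.17 and 5.19 in the mutant-labelled libraries at room temperature. After cold it was 22.9, 18.8 and 23.3 in controls and 8.94, 45.0 and 12.9 in the mutant-labelled libraries. Cold controls lay above room temperature controls, while the mutant-labelled libraries overlapped between temperatures. Both ratios were computed after the values had been seen and were not tested.

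**Figure D3:**
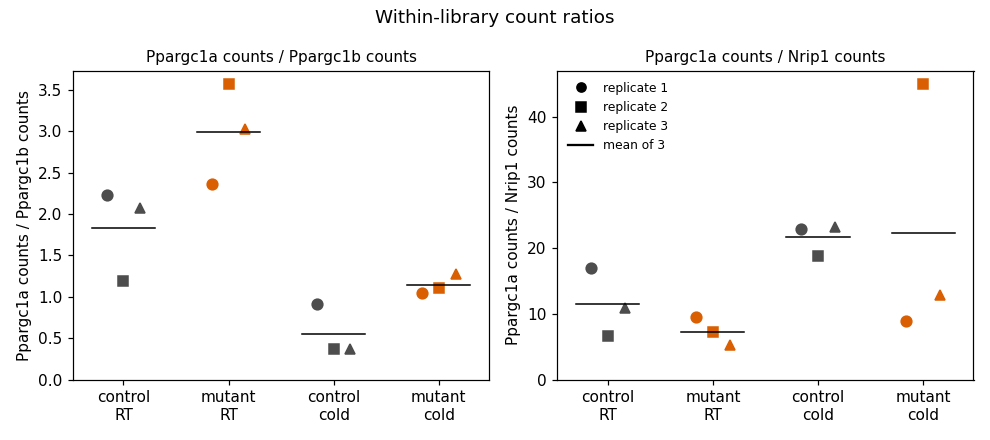
Ratios of member counts within each library, by genotype label and temperature (RT, room temperature), where points are libraries. The Ppargc1a to Ppargc1b ratio lies between 1.20 and 3.57 at room temperature and between 0.364 and 1.28 in the cold, with the mutant-labelled libraries above the controls at each temperature.

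Nrip1, the gene of the corepressor RIP140, had its lowest levels in the cold. Its level at room temperature was 7.89, 19.5 and 16.2 CPM in controls and 15.5, 30.7 and 33.8 CPM in the mutant-labelled libraries. Cold levels were 5.09, 2.17 and 2.74 CPM in controls and 11.6, 2.90 and 13.8 CPM in the mutant-labelled libraries. Cold libraries lay below room temperature libraries in both genotypes, and the genotypes overlapped at both temperatures. The cold difference was -2.12 ± 0.59 in controls (adjusted p = 0.0609) and -1.49 ± 0.57 in the mutant-labelled libraries (adjusted p = 0.103), neither of them called. DESeq2 called both (adjusted p = 0.000836 and 0.0172), as did limma-voom (0.0162 and 0.0120). The control difference was also called with only the groups compared (0.0298), without control room temperature 1 (0.0480) and without TMM factors (0.0438). Summed fibroblast and preadipocyte markers (8 of 8 genes detected in each library) were 1275 to 2063 CPM in controls at room temperature and 710 to 1209 CPM in the cold. In the mutant-labelled libraries they were 1629 to 1974 CPM at room temperature and 675, 544 and 2237 CPM in the cold, in the library order used for Nrip1. Their part in the result was not tested.

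Ppara, the gene of PPAR-alpha, varied least. Its level was 406, 631 and 373 CPM in controls and 324, 396 and 382 CPM in the mutant-labelled libraries at room temperature. Cold levels were 392, 334 and 397 CPM in controls and 415, 428 and 452 CPM in the mutant-labelled libraries. The groups overlapped except that, among the mutant-labelled libraries, cold lay above room temperature and that, in the cold, the mutant-labelled libraries lay above controls. No difference was called, and the 4 ran from -0.36 ± 0.19 (genotype at room temperature) to 0.23 ± 0.19 (cold in the mutant-labelled libraries). No member changed sign in any alternative analysis.

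**Figure D4:**
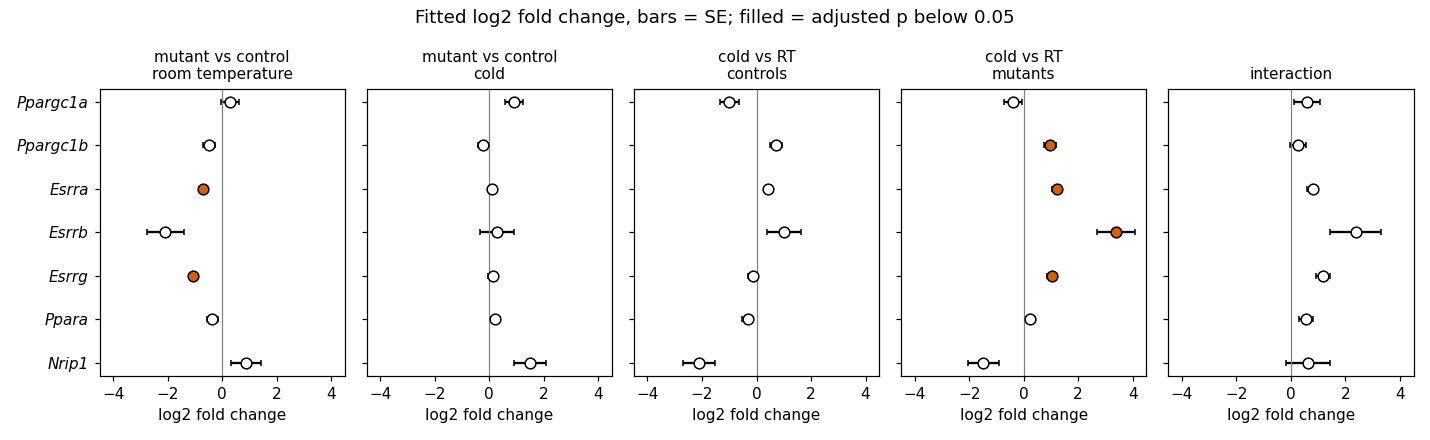
Log2 fold change of each member in the 4 comparisons of 2 groups and the interaction, with bars of 1 SE and filled symbols where the adjusted p is below 0.05. The filled symbols are Esrra and Esrrg at room temperature, both negative, and Esrra, Esrrb, Esrrg and Ppargc1b for cold in the mutant-labelled libraries, all positive.

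Counted over the group, 2 of 7 members differed between genotypes at room temperature, both lower, where 6.24% of all tested genes were called. In the cold 0 of 7 differed by edgeR (2 at an unadjusted p under 0.05: Ppargc1a and Nrip1), and DESeq2 and limma-voom also called 0; the background was 1.12%. For cold in controls edgeR called 0 of 7 (4 at an unadjusted p under 0.05), DESeq2 called 3 and limma-voom 5, with 6.62% of all genes called by edgeR. For cold in the mutant-labelled libraries 4 of 7 were called, all higher, against 17.4% of all genes, and 4 were called in each analysis that left out 1 library. The interaction called 0 of 7 (3 at an unadjusted p under 0.05), against 2 by DESeq2 and by limma-voom, Esrra and Esrrg in both; edgeR called 0.478% of all genes. The comparisons share groups: the room temperature mutant-labelled libraries enter both of the comparisons with called members. The median log2 difference of all genes lay within 0.05 of 0 with TMM factors. Without them it was -0.19 for genotype at room temperature, -0.20 for cold in controls and 0.19 for the interaction.

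Levels of different genes were compared as CPM per kilobase of exon (union of GENCODE M21 exons, which overstates the length where an isoform is not used). In controls at room temperature Ppara came first (123 ± 36.6 CPM per kilobase, mean ± SD, n = 3), then Esrra (68.2 ± 9.13), Ppargc1a (22.3 ± 3.85), Ppargc1b (21.2 ± 6.14), Esrrg (4.53 ± 0.794), Nrip1 (1.27 ± 0.524) and Esrrb (0.404 ± 0.322). The 2 coactivators overlapped there, as did Nrip1 and Esrrb. In cold controls Ppara (97.5 ± 9.11) and Esrra (90.6 ± 4.43) overlapped, Ppargc1b (34.7 ± 8.11) stood above Ppargc1a (11.2 ± 5.91), and Esrrb (0.816 ± 0.186) stood above Nrip1 (0.291 ± 0.135). In the mutant-labelled libraries at room temperature Ppargc1a (27.5 ± 5.49) stood above Ppargc1b (15.2 ± 0.6), and Nrip1 (2.33 ± 0.856) and Esrrg (2.18 ± 0.52) overlapped. In the cold Ppargc1b (29.8 ± 5.02) and Ppargc1a (20.9 ± 5.72) overlapped in these libraries, with Ppara at 113 ± 4.8 and Esrra at 97.4 ± 15.7. Esrra made up 93.0% to 95.8% of the summed ERR level per kilobase in every library, and Esrrb at most 1.18%. The share of Ppargc1b in the summed PGC1 level was 31.6% to 58.0% in the 6 room temperature libraries and 56.4% to 81.9% in the 6 cold libraries.

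Genes whose profile over the 12 libraries lay closest to a member were found by the root mean square (RMS) difference of centred log2 CPM among 10035 genes with a mean of at least 5 CPM. Libraries share their scaling and tissue makeup, so this likeness is a description. Closest to Esrra were Sod2 (mitochondrial superoxide dismutase, 0.105), Afg3l2 (a mitochondrial inner membrane protease, 0.111) and Rhot2 (a mitochondrial outer membrane GTPase, 0.112), where the RMS of Esrra about its own mean was 0.49. Closest to Esrrg (own RMS 0.48) were Agtrap (0.185), P2ry1 (0.187) and Trim16 (0.197). Esrrb (own RMS 1.59) had Wipf3 nearest (0.396), then Mreg (0.601) and Got1 (0.618), the cytosolic aspartate aminotransferase. Ppargc1b (0.52) was nearest to Pigo (0.187), with Agpat3 (0.213) also among its 3 nearest. Ppargc1a (0.65) was nearest to Mgat4a (0.318), Ankrd44 (0.337) and Cpeb4 (0.341), and Nrip1 (1.29) to C7 (0.662), Serpine2 (0.666) and Ccdc186 (0.707). For Ppara, whose own RMS was 0.23, the nearest were Rcor1, Gpbp1l1 (0.119) and Dpp8 (0.120), distances that are large against so flat a profile. The distances for Nrip1 and Ppargc1a were about as large against their own RMS.

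Of 26 genes known as ERR targets, mostly enzymes of the citrate cycle and the respiratory chain, 11 rose in the cold in the mutant-labelled libraries, 0 fell and 15 did not pass the test, where 17.4% of all genes were called (1531 higher and 1132 lower). The median log2 difference of the list was 0.65, against -0.01 over all genes. DESeq2 called 15 and limma-voom 20 of the 26. Among those that did not pass were Slc25a4, an adenine nucleotide carrier (-0.03 ± 0.30), and Atp5b, an ATP synthase subunit gene (0.63 ± 0.30, adjusted p = 0.186). Perm1, a muscle and fat regulator induced by PGC1 and ERR, was 23.0, 11.3 and 25.9 CPM there at room temperature and 109, 124 and 72.7 CPM in the cold. The groups were far apart, with a difference of 2.35 ± 0.33 (adjusted p = 0.00085). Ldhb, the lactate dehydrogenase subunit of oxidative tissues, rose by 1.59 ± 0.16 (adjusted p = 0.000117), and Idh3a, a citrate cycle dehydrogenase subunit, by 1.31 ± 0.19 (adjusted p = 0.000827). Got1 rose by 2.27 ± 0.65 (adjusted p = 0.0408), but was called in 9 of 16 alternatives against 16 of 16 for Perm1, Ldhb and Idh3a. The count of 11 fell to 4 without mutant cold 1 or 2, was 18 without mutant cold 3 and was 6 without the muscle-rich libraries. One member of the list, Mb, is also a muscle marker.

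In controls 0 of the 26 ERR targets were called in the cold by edgeR (8 at an unadjusted p under 0.05, 4 by DESeq2 and 9 by limma-voom, and 1 by edgeR without control room temperature 1), with a median of 0.45. Over all genes 6.62% were called, with a median of -0.01. Atp5b, among the most abundant of the targets, differed by 0.69 ± 0.30 (adjusted p = 0.190). At room temperature 3 were lower in the mutant-labelled libraries: Perm1 (-1.50 ± 0.32, adjusted p = 0.0189), Ldhb (-1.18 ± 0.15, adjusted p = 0.00148) and Cpt1b, the mitochondrial carnitine palmitoyltransferase of muscle and brown fat (-1.05 ± 0.20, adjusted p = 0.00902). DESeq2 called 9 of the 26 and limma-voom 15, and 14 had an unadjusted p under 0.05, while edgeR called 6.24% of all genes. The list median there was -0.75 against -0.04 over all genes. The count was 1 without mutant room temperature 2 and 5 without control room temperature 1. Without the muscle-rich libraries it was 0, with a median of -0.44. In the cold 0 of 26 differed between genotypes (0 at an unadjusted p under 0.05, and 0 by DESeq2 and limma-voom), with a median of -0.28. Over all genes 1.12% were called there, with a median of -0.01.

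Of 11 factors of mitochondrial DNA expression and their nuclear regulators, 5 rose with cold in the mutant-labelled libraries, 0 fell and 6 did not pass the test, with a median of 0.56 and 17.4% of all genes called. The 5 were Polrmt, the mitochondrial RNA polymerase (0.99 ± 0.11, adjusted p = 0.000252), Gabpa (0.73 ± 0.16), Tfb2m (0.73 ± 0.15), Tfam, which packages mitochondrial DNA (0.70 ± 0.18), and the helicase gene Peo1 (0.62 ± 0.12). The count was 4 to 7 over analyses that left out 1 library and 2 without the muscle-rich libraries. In controls, where 6.62% of all genes were called, Polrmt alone was called (0.53 ± 0.11, adjusted p = 0.0190), a call lost without control room temperature 3 or any cold control. Peo1 was the 1 gene called at room temperature, lower in the mutant-labelled libraries (-0.62 ± 0.12, adjusted p = 0.00979), and it was not called without control room temperature 3 or mutant room temperature 2, while 2 genes were called without control room temperature 1. Over all genes 6.24% were called there. Leaving out the muscle-rich libraries kept only 1 control at room temperature. In that fit the list median went from -0.23 to -0.14 for genotype at room temperature and from 0.34 to 0.28 for cold in controls. DESeq2 and limma-voom called 6 and 7 of the 11 for cold in the mutant-labelled libraries, 2 and 4 for cold in controls, and 2 and 4 for genotype at room temperature. In the cold 0 of 11 differed between genotypes by edgeR, also at an unadjusted p under 0.05 and by DESeq2 and limma-voom. Over all genes edgeR called 1.12% there.

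Among cofactors and upstream regulators the counts called, 3 of 25 for cold in the mutant-labelled libraries, 2 of 25 for cold in controls and 1 of 25 for genotype at room temperature, stood beside 17.4%, 6.62% and 6.24% of all genes and are not read as a result about the list. DESeq2 and limma-voom called 4 and 8, 4 and 7, and 4 and 5 in these comparisons. In the mutant-labelled libraries cold raised Perm1 and the stress kinase gene Mapk14 (0.59 ± 0.13, adjusted p = 0.00728). It lowered Pprc1, the remaining PGC1-family coactivator (-0.63 ± 0.15, adjusted p = 0.0148), whose level went from 22.8 ± 1.49 to 14.7 ± 2.52 CPM. The count of 3 was 2 without mutant room temperature 2 or mutant cold 1 or 2 and 5 without mutant cold 3. In controls cold lowered Ep300, an acetyltransferase that PGC1 recruits (-0.68 ± 0.17, adjusted p = 0.0378), and Atf2, a factor that binds cyclic AMP response elements (-0.42 ± 0.11, adjusted p = 0.0488). Neither was called after leaving out control room temperature 2 or 3 or any cold control. At room temperature Perm1 was the 1 gene called, against 0 without control room temperature 3 or mutant room temperature 2 and 3 without control room temperature 2. Without the muscle-rich libraries 0 cofactors were called at room temperature or for cold in controls, and for cold in the mutant-labelled libraries 3 were higher and 0 lower. In the cold 0 of 25 differed between genotypes by edgeR (4 at an unadjusted p under 0.05, 1 by DESeq2 and by limma-voom), beside 1.12% of all genes. Of the 7 receptor partners, 1 was called for cold in controls and 2 in the mutant-labelled libraries (2 and 2 by DESeq2, 2 and 5 by limma-voom). Over all genes edgeR called 6.62% and 17.4% in these comparisons. Ppard rose in the cold in both genotypes (0.53 ± 0.10 in controls, adjusted p = 0.00857, and 0.44 ± 0.10 in the mutant-labelled libraries, adjusted p = 0.00811). Ppard in controls was not called without control cold 2 or without the muscle-rich libraries. Rxrb, a partner of PPAR receptors, rose in the mutant-labelled libraries (0.69 ± 0.12, adjusted p = 0.00233). Between genotypes 0 of 7 partners were called by edgeR at either temperature (4 at room temperature and 1 in the cold at an unadjusted p under 0.05). Over all genes edgeR called 6.24% at room temperature and 1.12% in the cold. DESeq2 called 2 and 1 of the partners, limma-voom 4 and 1, and edgeR 1 at room temperature without mutant room temperature 1.

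PPAR-alpha targets split at room temperature, although Ppara itself was not called. Of 26 tested, 7 were higher in the mutant-labelled libraries, among them Slc27a1, a fatty acid transporter (1.35 ± 0.30, adjusted p = 0.0219). The 3 lower ones included the mitochondrial enzymes Acaa2 (-1.08 ± 0.25, adjusted p = 0.0237) and Cpt1b, which is also an ERR target. Over all genes 6.24% were called, and DESeq2 and limma-voom each called 12 of the 26. The count of 10 was 4 without control room temperature 3 or mutant room temperature 3, 12 without control room temperature 1 and 1 without the muscle-rich libraries. In the cold 1 of 26 differed between genotypes: Cpt1a, the liver-type carnitine palmitoyltransferase, was 66.8 ± 16.4 CPM in the mutant-labelled libraries and 27.5 ± 2.99 CPM in controls (1.28 ± 0.20, adjusted p = 0.0124). In this comparison 1.12% of all genes were called, and of the 26 DESeq2 called 5, limma-voom 6, and 7 had an unadjusted p under 0.05. The Cpt1a call was lost without any 1 of the 3 cold controls, and without the muscle-rich libraries 0 of 26 were called there.

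Cold raised 10 and lowered 2 PPAR-alpha targets in the mutant-labelled libraries. Ehhadh, a peroxisomal oxidation enzyme, rose by 1.59 ± 0.34 (adjusted p = 0.00819), while Angptl4, a lipoprotein lipase inhibitor, fell by 1.20 ± 0.22 (adjusted p = 0.00343). The count of 12 (15 by DESeq2 and 20 by limma-voom, with 17.4% of all genes called by edgeR) was 8 without mutant room temperature 2 or mutant cold 2, 18 without mutant cold 3 and 7 without the muscle-rich libraries. In controls 4 rose and 0 fell, among them the lipid droplet gene Plin2 (1.47 ± 0.20, adjusted p = 0.00242) and the hormone gene Fgf21. Fgf21 had 10, 0 and 0 counts in controls at room temperature and 86, 26 and 36 counts in the cold. The control count of 4 (9 by DESeq2 and 13 by limma-voom, with 6.62% of all genes called by edgeR) was 1 in each analysis that left out 1 control library other than room temperature 1, 5 without that library and 0 without the muscle-rich libraries.

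**Figure D5:**
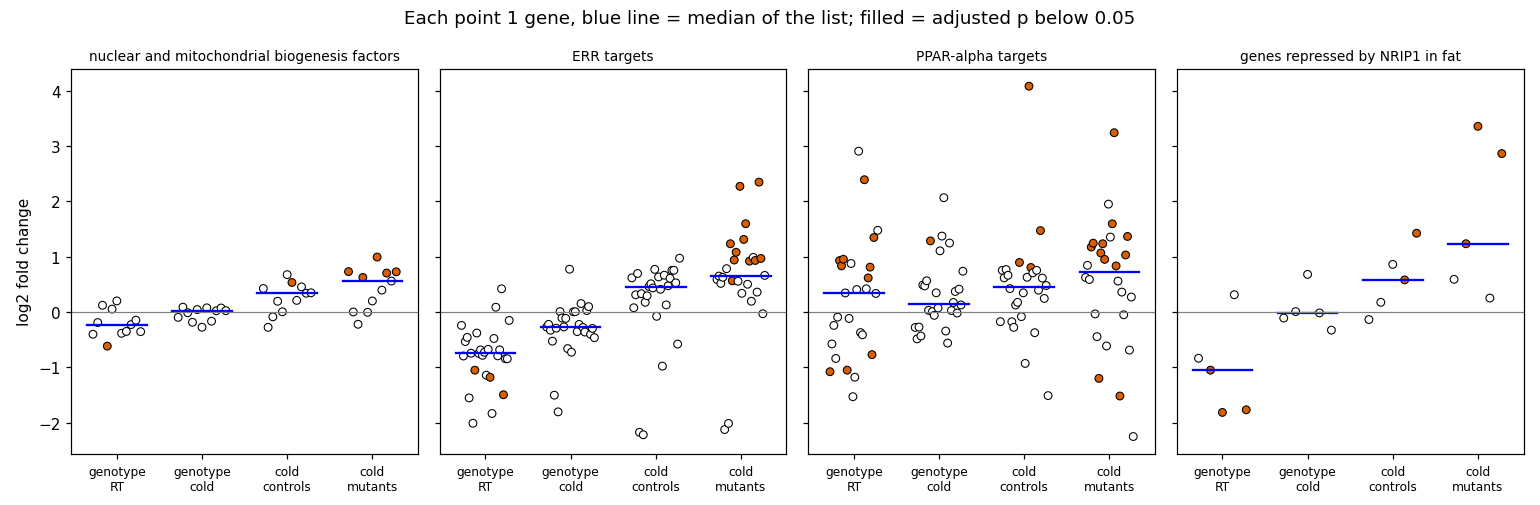
Log2 fold change of each tested gene of 4 gene lists (biogenesis factors, ERR targets, PPAR-alpha targets and genes repressed by RIP140) in the 4 comparisons of 2 groups, where each point is a gene, filled where the adjusted p is below 0.05, and the line is the median of the list. For cold in the mutant-labelled libraries the medians are 0.65 for ERR targets and 0.56 for biogenesis factors, against -0.01 for all genes. The highest PPAR-alpha target point for cold in controls is Fgf21, whose fitted value rests on 10, 0 and 0 counts at room temperature and is not a bound.

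Genes that RIP140 is known to repress in fat, 5 in all, included the thermogenic gene Ucp1. At room temperature 3 of 5 were lower in the mutant-labelled libraries: Fabp3, a fatty acid binding protein of oxidative tissue (-1.82 ± 0.42, adjusted p = 0.0262), Ucp1, which uncouples respiration to make heat (-1.77 ± 0.39, adjusted p = 0.0199), and Cpt1b. Over all genes 6.24% were called, and DESeq2 called 4 and limma-voom 5 of the 5. The count was 0 without mutant room temperature 2 or 3 or without the muscle-rich libraries and 4 without control room temperature 1. Cold raised the same 3 in the mutant-labelled libraries, Fabp3 by 3.35 ± 0.45 (adjusted p = 0.00066) and Ucp1 by 2.86 ± 0.41 (adjusted p = 0.000793), and 3 were called without the muscle-rich libraries too. With all libraries 17.4% of all genes were called in that comparison, and DESeq2 called 3 and limma-voom 4 of the 5. In controls cold raised Ucp1 by 1.42 ± 0.39 (adjusted p = 0.0492) and the glucose transporter gene Slc2a4 by 0.58 ± 0.14 (adjusted p = 0.0284). That count of 2, the same by DESeq2 and limma-voom and beside 6.62% of all genes, was 1 without control room temperature 2 and 0 without any other control library or without the muscle-rich libraries. In the cold 0 of 5 differed between genotypes by edgeR, where it called 1.12% of all genes. The count was also 0 at an unadjusted p under 0.05 and by DESeq2 and limma-voom. Ucp1 was 10968, 11673 and 5864 CPM there in the mutant-labelled libraries and 12209, 11502 and 12087 CPM in controls, and the lowest value came from the library rich in epithelial markers.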

How the data were processed

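RNA of brown adipose tissue was measured by RNA-seq in 12 libraries of 4 groups, which were assigned from the labels. The values are raw gene counts as deposited. Per the submitters' processing notes, the authors used STAR, featureCounts and build mm9. The sources used here do not state versions, annotation or strand setting, so overlapping or antisense genes cannot be separated. Per the labels' protocols, libraries were made with a NEBNext Ultra kit.

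The test was that of edgeR 4.0.16 (R 4.3.3). Genes were kept by filterByExpr (minimum count 10, minimum total 15), scaled by TMM and fitted by the robust quasi-likelihood method to all 12 libraries, each group having 1 coefficient. Contrasts, 5 in number, were genotype at each temperature, cold in each genotype and their interaction. Tests are two-sided, with Benjamini-Hochberg adjustment over 15265 genes and calls below 0.05. Each SE was derived from the F statistic. The procedure was also run on simulated counts with changes planted in the room temperature mutant-labelled group. The simulated libraries did not differ in tissue makeup, unlike these, so that run cannot speak to such differences. Library totals of 25835650 to 37927038 counts set the floor of 3 counts.

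Alternatives were RLE factors, DESeq2 1.42.0, limma 3.58.1 voom with quality weights, other filters, a non-robust fit, only the groups compared, a block for replicate number, and each library left out in turn. Leaving out the 4 muscle-rich libraries and dropping the TMM factors were added after seeing the data. The members, the lists of known targets and partners, and the comparisons were chosen with earlier results of these data known.

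Named genes are the members, Ebf2, Ucp1, up to 2 called genes per list and direction by fold change (the most abundant where none was called) and the 3 nearest profiles per member. Idh3a, Tfam, Tfb2m, Peo1, Slc25a4, some smaller changes and the ratios were added after their values were seen. Groups share replicate numbers. The deviations of same-numbered libraries correlated above 0.1 in all 3 pairs for genotype at room temperature (0.149, 0.733 and 0.494). They also did for cold in controls (0.134, 0.657 and 0.471), but not in the other comparisons. In these 2 comparisons, however, mutant room temperature 3 and control cold 3 each correlated more with a library of another number. No record ties a number to a litter or day. Of the genes this rule selects, 3 are not reported here. Of the symbols listed, Twnk was present under its older symbol Peo1 and Adgre1 as Emr1.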

Additional observations from a re-analysis of the deposited data

Results flagged for a closer look

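Ldhb, an ERR target, was the 1 gene among the members and named list genes whose genotype difference changed with temperature by the edgeR interaction test (1.19 ± 0.22 on the log2 scale, adjusted p = 0.0449). Its level was 571 ± 46.9 CPM in controls and 252 ± 28.6 CPM in the mutant-labelled libraries, both at room temperature, and 758 ± 89.1 and 760 ± 90.0 CPM in the cold (mean ± SD, n = 3). The genotype groups did not overlap at room temperature and overlapped in the cold. The interaction was called in 8 of 21 alternatives, with values of 1.11 to 1.34 and adjusted p of 2.34e-06 to 0.254. Leaving out any library other than control room temperature 1 or mutant cold 3 ended the call. So did no filter on low counts (adjusted p = 0.0520), the replicate block (0.0551) and leaving out the muscle-rich libraries (1.19). Among the nearest-profile genes, which were picked from these same data, P2ry1 also passed the edgeR interaction test (1.72 ± 0.26, adjusted p = 0.0200).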

How the results depend on the processing

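Called members numbered 1 to 2 for genotype at room temperature when 1 library was left out and 1 without the muscle-rich libraries, against 2. Without control room temperature 2 or mutant room temperature 3, the 2 called were Esrrg and Esrrb, and Esrra was not called. For cold in controls the count of 0 became 3 with DESeq2, 5 with limma-voom, 1 with only the groups compared, 0 to 1 when 1 library was left out and 1 without TMM factors. For the interaction it became 2 with DESeq2 and with limma-voom, 0 to 1 when 1 library was left out and 1 without TMM factors. The count of 4 for cold in the mutant-labelled libraries and of 0 for genotype in the cold were the same in all 16 alternatives except that DESeq2 and limma-voom gave 5 for the former, within 1.5 times. Over all genes, calls for genotype at room temperature (952) were 1699 with DESeq2, 2844 with limma-voom, 552 with only the groups compared, 395 to 1152 when 1 library was left out and 129 without the muscle-rich libraries. For genotype in the cold (171) they were 745, 1119, 102, 28 to 133 and 18 in that order. For cold in controls (1010) they were 2018 with DESeq2, 3402 with limma-voom, 313 to 971 with 1 library left out and 13 without the muscle-rich libraries. For cold in the mutant-labelled libraries (2663) they were 5075 with limma-voom, 1633 with only the groups compared, 1466 to 3630 with 1 library left out and 1218 without the muscle-rich libraries. For the interaction (73) they were 452 with DESeq2, 1121 with limma-voom, 48 with the non-robust fit, 13 to 204 with 1 library left out and 26 without the muscle-rich libraries. The replicate block took the interaction count from 73 to 34 and changed no call of a member. The cause of these shifts was not tested, although fits on fewer libraries have fewer degrees of freedom. Leaving out the muscle-rich libraries left 1 control at room temperature, assumed to vary like the other groups. Among the members depth limits Esrrb most, with 8 to 38 counts per library in its lowest group.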
